A study of Mus musculus with 31 samples.

Results

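Polyamines are small positively charged molecules that bind RNA, ribosomes and ion channels, and putrescine, spermidine and spermine are the main ones in mammalian brain. Their level is held by a loop that acts largely on translation. Ornithine decarboxylase (Odc1) makes putrescine, S-adenosylmethionine decarboxylase (Amd1) supplies the groups that turn it into spermidine and spermine, antizymes (Oaz1 and Oaz2) bind ornithine decarboxylase and bring it to the proteasome, and the antizyme inhibitor (Azin1) takes up antizyme and so spares the decarboxylase. Antizyme is made only when ribosomes shift reading frame within the coding sequence, a step that polyamines favour, and the Amd1, Odc1 and Azin1 transcripts carry short upstream reading frames or related elements through which polyamines hold translation back. Spermidine/spermine acetyltransferase (Sat1), whose mRNA is known to be poorly translated when polyamines are low, and spermine oxidase (Smox) break polyamines down.

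The 7 genes Odc1, Amd1, Azin1, Oaz1, Oaz2, Sat1 and Smox were chosen by name for this known control of translation, from the 20436 gene symbols of the deposited tables. All 7 were in the tables, and all 7 passed the filter on low counts in both assays. The study profiled cortex of mice 29 to 34 days old by ribosome profiling, which sequences the mRNA fragments that ribosomes protect (footprints, RPF), and by sequencing of polyadenylated mRNA (RNA). The 4 genotypes were wild-type mice (WT, 4 RPF and 4 RNA libraries), Fmr1-deficient mice, named FXS by the submitters (5 and 4), Rps6kb1-deficient mice, which lack the S6 kinase S6K1 and are called S6K1 here (3 and 4), and double-deficient mice (DKO, 3 and 4). The labels name no treatment, and the alleles, the tissues in which they act, the sex and the strain background are not given in the sources used here.

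The 31 libraries held 12.1 to 17.3 M counts for RNA and 16.6 to 34.9 M for RPF, and values below are CPM (the count divided by the library total in M) after TMM scaling. Fmr1 footprints fell from 117 ± 15.3 CPM (SD, n = 4) in WT to 7.85 ± 0.628 (n = 5) in FXS and 10.5 ± 2.37 (n = 3) in DKO. Rps6kb1 footprints fell from 28.9 ± 2.48 CPM in WT to 10.2 ± 2.58 in S6K1 and 11.6 ± 0.352 in DKO, each with n as above, while its mRNA was still present at 33.6 ± 6.91 CPM in S6K1 (n = 4) against 46.4 ± 6.83 in WT (n = 4). All 6 markers of cortical neurons on the list used were detected in every group. Each RNA batch of the labels held every genotype once, but the RPF batches did not: batch 1 held only DKO replicate 1 and S6K1 replicate 1, and these stood apart for several of the 7 genes, as given below.

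In the RefSeq annotation of GRCm38.p6 Odc1 lies at chr12:17544808-17551502, Amd1 at chr10:40287458-40302188, Azin1 at chr15:38487430-38519294, Oaz1 at chr10:80826656-80829290, Oaz2 at chr9:65676548-65690300, Sat1 at chrX:155213126-155216449 and Smox at chr2:131491858-131525183. For 6 of the 7 (not Azin1) the RefSeq table gave the first 50 bases of the transcript, and Amd1 was the only one of these 6 with an ATG there. Its ATG opens a reading frame that closes after 6 codons, known from earlier work as the element by which polyamines stall ribosomes on this mRNA. The frame is shown because it is the regulatory sequence of this group that can be read from the table. It is set beside the same stretch of Amd2, a near-identical copy of Amd1 that is not in the count tables, and beside Eif5a, the translation factor that carries the spermidine-derived residue hypusine and that also has a short closed frame at its start. Capitals mark the ATG and the stop codon.
Amd1, chr10:40302151-40302179, minus strand: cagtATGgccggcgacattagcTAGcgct
Amd2, chr10:35711856-35711884, minus strand: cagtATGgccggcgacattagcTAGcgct
Eif5a, chr11:69921930-69921958, minus strand: gATGgttgtaatccgaccacacTAGcgtg
The Amd1 and Amd2 stretches are the same letter for letter, so reads from such a stretch cannot be assigned to either gene by sequence, and how the authors' counting treated reads shared with Amd2 is not given in the sources used here. Processed copies of Odc1 and Oaz1 elsewhere in the genome could share reads in the same way. A closed frame of this kind was found in 11.7% of the 32851 start windows in the RefSeq table, and an ATG in 44.3%, so a match is a description of the sequence and not evidence of use. The tables count reads over coding sequences, and footprints on the upstream frames themselves are not in these values.

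In WT cortex 6 of the 7 genes had fewer footprints than their mRNA would give at the common level of the libraries, and the genes differed widely among themselves. Sat1 and Oaz1 were lowest, Smox followed, Odc1, Oaz2 and Azin1 were moderately low, and Amd1 stayed near the level of the typical gene. The counts of both assays are named as counts over the coding sequence, so both sides of this ratio cover the same length. Whether the ratio still varies with gene length was not tested. The ratio was fitted on the 8 WT libraries with edgeR's quasi-likelihood test, where a log2 ratio of 0 is the TMM level. The p-values were adjusted by Benjamini-Hochberg over 13654 genes. The background is broad: 74.9% of those genes were called in 1 direction or the other, 6743 lower and 3482 higher, and the median log2 ratio was -0.38. A call by itself therefore says little, and the place of each gene among all genes is given beside it. The RPF and RNA libraries are not tied to the same animals by the labels, so the ratio is between groups of libraries and has no value per animal.

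**Figure D1:**
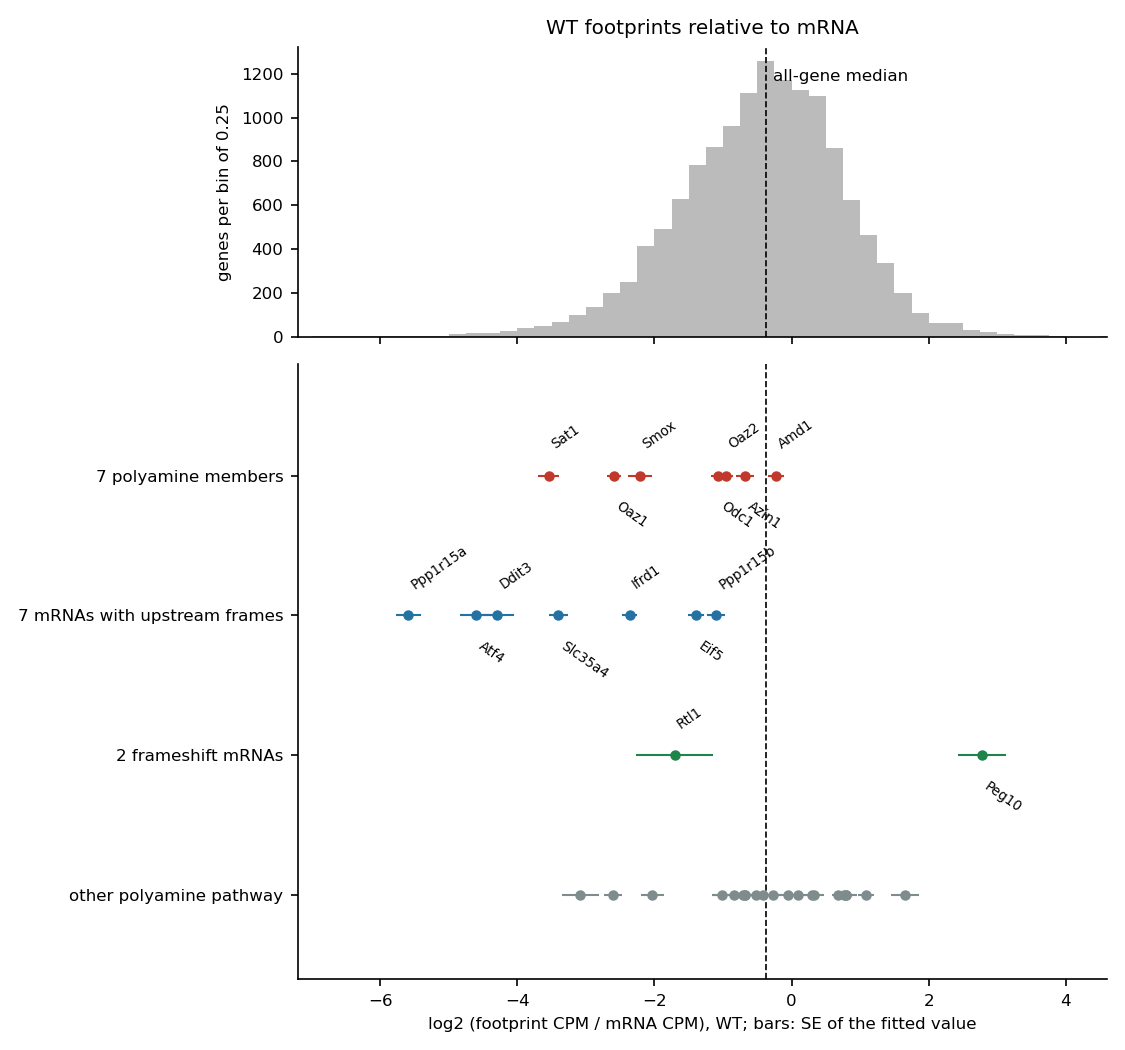
The upper panel counts genes by their WT log2 ratio of footprints to mRNA, and the lower panel places the 7 polyamine genes, 7 mRNAs known for upstream frames, 2 known for frameshifting and 21 other polyamine pathway genes on the same axis, each with its SE. Sat1 (-3.54), Oaz1 (-2.59) and Smox (-2.21) lie in the lower tail, and Amd1 (-0.23) lies right of the all-gene median of -0.38, drawn as a dashed line.

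Among the synthesis enzymes, Odc1 mRNA in the 4 WT libraries was at 110, 110, 109 and 84.0 CPM, and its footprints were at 53.5, 48.6, 47.9 and 50.3 CPM. Every footprint value lay below every mRNA value, and the share of all genes with such a gap was not computed. The log2 ratio was -1.07 ± 0.108 (SE; adjusted p = 1.39e-06 by edgeR), which is 0.477 of the reference level and the 28.6th percentile of all genes. Amd1 mRNA was at 204, 155, 163 and 143 CPM and its footprints at 141, 152, 140 and 146 CPM, so the ranges overlapped. Its log2 ratio was -0.23 ± 0.111 (adjusted p = 0.0804 by edgeR), with a 95% interval of -0.47 to 0.01, and it stood at the 55.4th percentile. Amd1 is thus the gene of this group with the known 6-codon frame shown above and also the gene with the highest ratio of the 7. Over all genes tested with a start window, the 858 genes with a closed frame in those 50 bases had a median log2 ratio of -0.43 and the 9501 without had -0.38. Frames that open or close past base 50 were not seen, so the 9501 can include genes with upstream frames. The part of upstream frames in the ratios was not tested.

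The antizymes differed from each other. Oaz1 mRNA was at 543, 562, 475 and 548 CPM, and its footprints were at 80.2, 90.7, 97.7 and 90.4 CPM. Its log2 ratio of -2.59 ± 0.0996 (adjusted p = 4.12e-10 by edgeR) is 0.166 of the reference level and the 4.43rd percentile, with 605 of 13654 genes below it. Oaz2 mRNA was at 143, 143, 131 and 135 CPM and its footprints at 64.8, 70.9, 79.3 and 75.2 CPM. The Oaz2 log2 ratio was -0.95 ± 0.0929 (adjusted p = 1.02e-06 by edgeR), at the 31.5th percentile, and its 95% interval of -1.15 to -0.75 did not reach the interval of Oaz1, -2.81 to -2.38. Azin1, which is related to ornithine decarboxylase in sequence but has no decarboxylase activity, had mRNA at 171, 139, 145 and 107 CPM and footprints at 88.6, 78.3, 99.0 and 91.3 CPM. Its log2 ratio was -0.68 ± 0.135 (adjusted p = 0.000526 by edgeR), at the 39.6th percentile. When the all-gene median was taken as the reference in place of the TMM level, an alternative chosen after seeing the data, Azin1 was no longer called (-0.30, adjusted p = 0.0576 by edgeR).

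The breakdown enzymes were both low. Sat1 mRNA was at 52.9, 50.2, 43.2 and 62.6 CPM in the WT libraries, and its footprints were at 4.09, 5.53, 4.52 and 4.06 CPM, from 81, 147, 158 and 83 counts. The log2 ratio of -3.54 ± 0.153 (adjusted p = 8.68e-10 by edgeR) is 0.0859 of the reference level, the 1.31st percentile, with 178 genes below it. Smox mRNA was at 59.8, 69.4, 61.1 and 99.6 CPM and its footprints at 16.4, 13.5, 18.3 and 15.3 CPM. The Smox log2 ratio was -2.21 ± 0.173 (adjusted p = 1.95e-07 by edgeR), at the 7.20th percentile. For comparison, the 5th percentile of all genes was -2.50 and the 10th was -1.99. For the mRNA and footprint levels of bulk cortex, as apart from their ratio, fewer cells of a type and less RNA per cell cannot be told apart. Markers of some minor cell types had low ratios too: all 4 microglial markers (median -1.98) and all 3 endothelial markers (median -3.61) were called lower in WT, and the blood marker Hbb-bs stood at -6.56. The summed microglial markers ranged from 79.6 to 246 CPM over the WT RNA libraries and from 36.1 to 68.1 CPM over the WT RPF libraries. The part of cell makeup in the low Sat1 and Smox ratios was not tested.

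Lists of related genes give the scale of these ratios. Of 8 mRNAs listed for upstream frames that hold back the main frame, 7 passed the filter and all 7 were called lower, with a median log2 ratio of -3.40. They ran from Ppp1r15a (-5.59 ± 0.176) and Atf4 (-4.61 ± 0.228), which act in the integrated stress response, to Ppp1r15b (-1.10 ± 0.129). Sat1, Oaz1 and Smox fall within that range, and Odc1, Oaz2, Azin1 and Amd1 lie above it. The 2 retroelement-derived genes listed for frameshifting went in opposite directions, with Peg10 at 2.78 ± 0.347 and Rtl1 at -1.70 ± 0.562. Of 26 other genes of polyamine metabolism, transport and hypusination, 21 were tested, with 7 higher, 8 lower and a median log2 ratio of -0.27. The highest were Eif5a2, a second form of the hypusinated factor (1.65 ± 0.204), and Ahcy, which hydrolyses S-adenosylhomocysteine (1.09 ± 0.116). The lowest were the P-type ATPase gene Atp13a4 (-3.08 ± 0.268) and the vesicular polyamine transporter gene Slc18b1 (-2.60 ± 0.132). Eif5a, whose frame is printed above, had a log2 ratio of 0.68 ± 0.0948, above the reference level and at the 84.2nd percentile. The spermidine synthase gene Srm stood at 0.09 ± 0.104 and the spermine synthase gene Sms at -0.52 ± 0.101, so the aminopropyl transferases were nearer to the typical gene than Oaz1, Sat1 or Smox.

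The order of the 7 ratios was much the same in the other genotypes. Taken as mean footprint CPM over mean mRNA CPM, with no batch term, Amd1 was highest and Azin1 next in all 4 genotypes, and Sat1, Oaz1 and Smox were the lowest 3 in all 4. Sat1 was lowest in WT (0.0871) and FXS (0.115), and Oaz1 was lowest in S6K1 (0.115) and DKO (0.110), where Sat1 stood at 0.120 and 0.155. Oaz1 was at 0.169 in WT and 0.161 in FXS. WT and FXS had Amd1 ratios of 0.870 and 0.946, and S6K1 and DKO had 1.01 and 1.21, with Azin1 ratios of 0.636, 0.659, 0.913 and 0.912 in that order. Over all genes the median of this ratio lay between 0.777 (DKO) and 0.796 (FXS). S6K1 and DKO each had 3 RPF libraries, with 1 of the 3 in batch 1, so these shifts are given as a description, and the fitted differences below have the batch as a term.

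**Figure D2:**
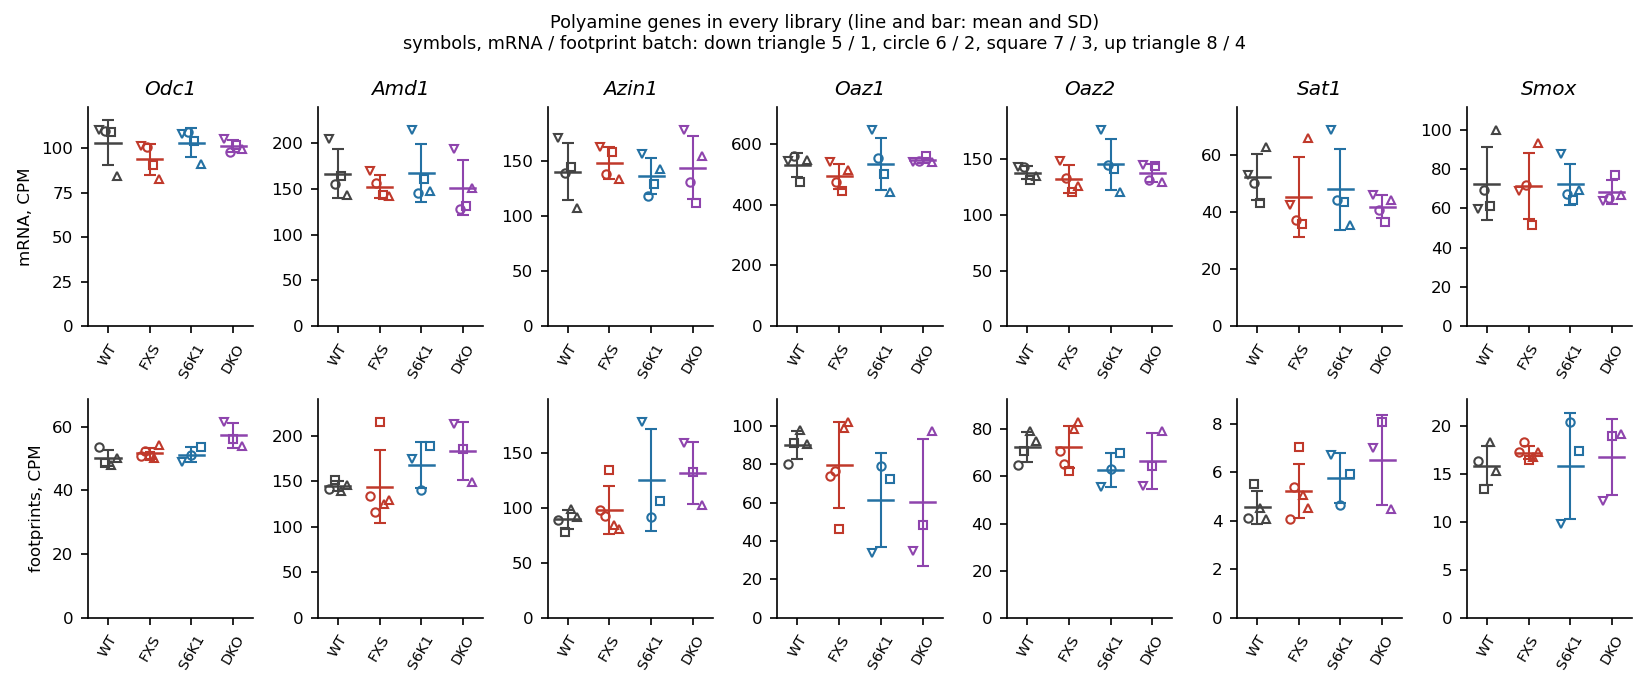
Each panel plots 1 gene's CPM in every library, mRNA above and footprints below, with genotype on the horizontal axis, the mean and SD as a line and bar, and the batch as the symbol. Oaz1 footprints were at 33.5 and 34.7 CPM in the S6K1 and DKO libraries of batch 1 (down triangles), and Azin1 footprints in the same libraries were at 178 and 159 CPM.

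None of the 7 genes passed the test between genotypes in mRNA, footprints or footprints relative to mRNA. The comparisons were each mutant against WT, DKO against FXS and S6K1, and the interaction, which asks whether loss of S6K1 acts differently with and without Fmr1, all by edgeR's quasi-likelihood test with the labels' batch as a term and adjustment over all genes tested. Comparisons with WT share the WT libraries. For mRNA, 0 of 7 were called in each, where the share of all genes called was 0.155% for FXS against WT, 0.0211% for S6K1 against WT, 5.23% for DKO against WT, 0.0281% for DKO against FXS, 0.387% for DKO against S6K1 and 0% for the interaction. For footprints, 0 of 7 were called in each, where the shares of all genes were 0.165%, 0.00717%, 0.366%, 0.0143%, 0.00717% and 0% in the same order. For footprints relative to mRNA, 0 of 7 were called in each, where the shares were 0.0952%, 0.0293%, 4.85%, 0.0146%, 0.00732% and 0%. At an unadjusted p under 0.05 by edgeR there were 2 of the 7 for footprints of DKO against WT, 1 for footprints of DKO against FXS, 1 for footprints relative to mRNA of DKO against WT, and 0 elsewhere. Of all genes 17.1%, 6.19% and 24.9% passed the same level in those comparisons, so the members' counts are near the background. DESeq2 and limma voom, with the same model, also called 0 of 7 in each comparison. For DKO against WT, DESeq2 called 1088 of 14215 genes in mRNA, 290 of 13953 in footprints and 1167 of 13654 relative to mRNA. In the same order limma voom called 696, 70 and 621. In the authors' deposited tables of FXS and DKO against WT, none of the 7 had an adjusted p under 0.05, and the lowest was Smox footprints of DKO against WT (log2 0.35, adjusted p 0.0983). Among the genes they list, 129 (FXS) and 298 (DKO) of 12083 were under that level in footprints. The counts were 187 and 1046 of 12876 in mRNA, and 2 and 87 of 12004 relative to mRNA. With few genes called in most of these comparisons, 0 of 7 is close to the background and does not show that the genes were alike across genotypes.

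**Figure D3:**
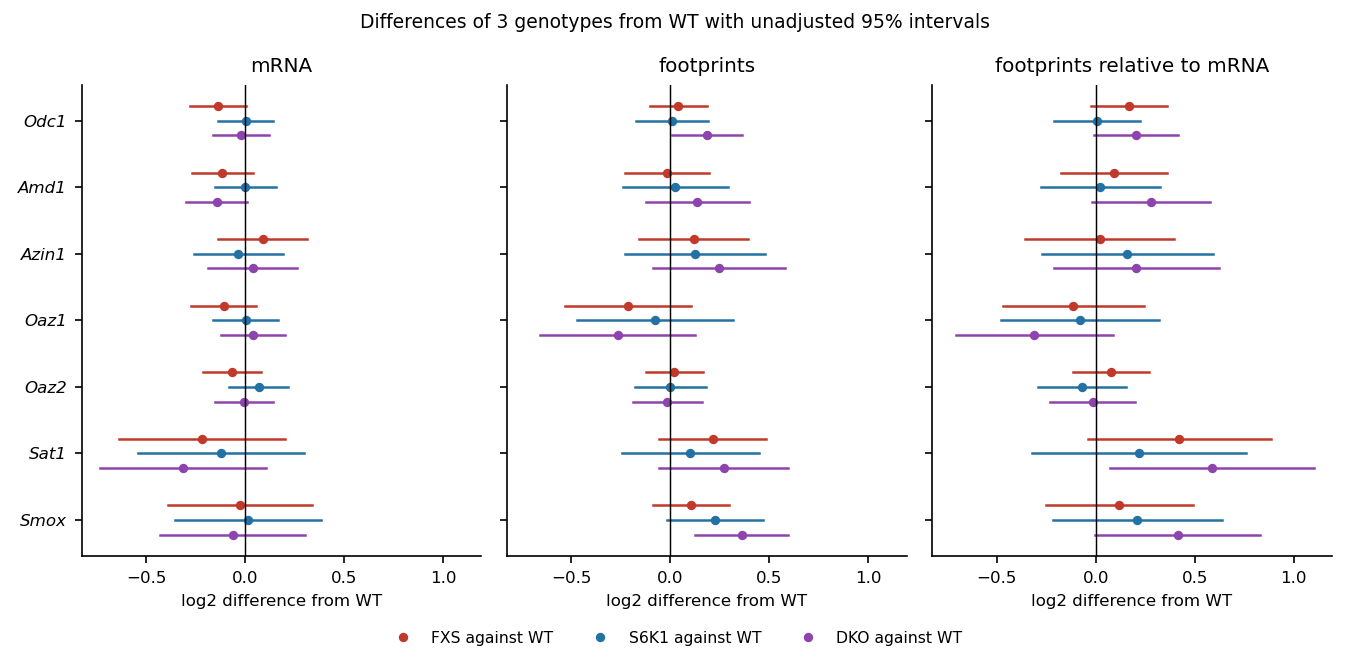
Points are fitted log2 differences of FXS, S6K1 and DKO from WT for the 7 genes in mRNA, footprints and footprints relative to mRNA, and lines are unadjusted 95% intervals. The intervals are narrowest for Odc1 and Oaz2 and widest for Sat1 relative to mRNA, which in DKO ran from 0.07 to 1.10.

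The intervals state what size of change the data leave room for. Over the 7 genes and the 3 mutants against WT, mRNA intervals ran from -0.73 (Sat1, DKO) to 0.38 (Smox, S6K1) on the log2 scale. Footprint intervals ran from -0.66 (Oaz1, DKO) to 0.60 (Sat1, DKO), and those of footprints relative to mRNA from -0.71 (Oaz1, DKO) to 1.10 (Sat1, DKO). Oaz2 was held most closely: its footprint difference was 0.02 ± 0.0668 in FXS and -0.02 ± 0.0817 in DKO, with a DKO interval of -0.19 to 0.16.

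Odc1 footprints were at 61.5, 56.3 and 54.0 CPM in DKO, above the WT range of 47.9 to 53.5, while Odc1 mRNA overlapped (97.5 to 105 CPM in DKO, 84.0 to 110 in WT). Among all genes 16.3% had DKO footprint libraries that did not overlap those of WT. The fitted footprint difference was 0.19 ± 0.0830 (adjusted p = 0.273 by edgeR). Within batch 3 the DKO library was at 56.3 CPM against 48.6 in WT, and within batch 4 it was at 54.0 CPM against 47.9 and 50.3. In FXS the Odc1 footprints were at 50.1 to 54.3 CPM with a median of 50.8, and in S6K1 at 48.9, 51.1 and 53.6 CPM, both overlapping WT.

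Smox footprints of DKO against WT had the lowest unadjusted p of any member and genotype comparison. Its footprints were at 12.2, 19.03 and 19.2 CPM in DKO and overlapped WT, with the lowest DKO value in batch 1, and the other batch 1 library, S6K1 replicate 1, was at 9.75 CPM against 20.5 and 17.4 in the other S6K1 libraries. The fitted footprint difference of DKO from WT was 0.36 ± 0.110 (adjusted p = 0.147 by edgeR). It was 0.08 ± 0.210 without the batch term (adjusted p = 0.835 by edgeR), so its size rests on that term, and 0.33 ± 0.112 with batch 1 left out (adjusted p = 0.199 by edgeR). Within batch 3 DKO was at 19.03 CPM against 13.5 in WT, and within batch 4 at 19.2 against 18.3 and 15.3. Smox mRNA was at 63.7 to 77.0 CPM in DKO and 59.8 to 99.6 in WT, a difference of -0.06 ± 0.167 (adjusted p = 0.868 by edgeR).

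Sat1 mRNA was at 46.0, 40.8, 36.7 and 44.1 CPM in DKO, overlapping the lowest WT value of 43.2 CPM, and its footprints were at 7.00, 8.07 and 4.46 CPM, overlapping the WT range of 4.06 to 5.53. The mRNA difference was -0.31 ± 0.191 (adjusted p = 0.366 by edgeR) and the footprint difference 0.27 ± 0.153 (adjusted p = 0.366 by edgeR). The footprint difference was 0.52 ± 0.224 without the batch term (adjusted p = 0.244 by edgeR) and 0.11 ± 0.179 without DKO replicate 2 (adjusted p = 0.864 by edgeR). Within batch 3 Sat1 footprints were at 8.07 CPM in DKO against 5.53 in WT, and within batch 4 at 4.46 against 4.52 and 4.06. The mRNA and footprint differences together gave 0.59 ± 0.250 for footprints relative to mRNA (adjusted p = 0.145 by edgeR), the largest fitted difference of any of the 7 from WT. Fitted on the DKO and WT libraries alone, the mRNA difference had the same size with a smaller error and was called (-0.31 ± 0.0808, adjusted p = 0.0399 by edgeR). That fit called 628 of 13906 genes, so the Sat1 call by itself says little. FXS libraries of Sat1 spanned 35.8 to 65.9 CPM in mRNA and 4.07 to 7.03 CPM in footprints, and both overlapped WT.

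Amd1 footprints reached 215 CPM in FXS replicate 3 and 214 CPM in DKO replicate 1, against 140 to 152 CPM in WT. The other FXS libraries were at 134, 116, 125 and 130 CPM, the other DKO libraries at 186 and 150, and the S6K1 libraries at 174, 141 and 189. The fitted footprint differences from WT were -0.02 ± 0.0993 in FXS, 0.03 ± 0.125 in S6K1 and 0.14 ± 0.123 in DKO, with adjusted p of 0.574 or more by edgeR. Relative to mRNA the Amd1 difference of DKO from WT was 0.28 ± 0.145 (adjusted p = 0.233 by edgeR). By batch the Amd1 footprint mean was 194 CPM in batch 1, 133 in batch 2, 186 in batch 3 and 138 in batch 4, and the part of the batches in the spread was not tested.

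Oaz1 and Azin1 footprints differed between RPF libraries in opposite directions. Oaz1 footprints were at 80.2 to 97.7 CPM in WT, and the FXS libraries had 73.9, 76.3, 46.3, 98.8 and 102, the S6K1 libraries 33.5, 78.8 and 72.0 and the DKO libraries 34.7, 48.2 and 97.5. Azin1 footprints were at 78.3 to 99.0 CPM in WT, and the FXS libraries had 98.1, 92.6, 134, 83.8 and 80.6, the S6K1 libraries 178, 91.1 and 106 and the DKO libraries 159, 133 and 102. The libraries in which Oaz1 was under 50 CPM were S6K1 replicate 1 and DKO replicate 1 of batch 1 and FXS replicate 3 and DKO replicate 2 of batch 3, and these held the highest Azin1 values. Oaz1 mRNA did not show this spread, at 443 to 644 CPM over all RNA libraries.

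**Figure D4:**
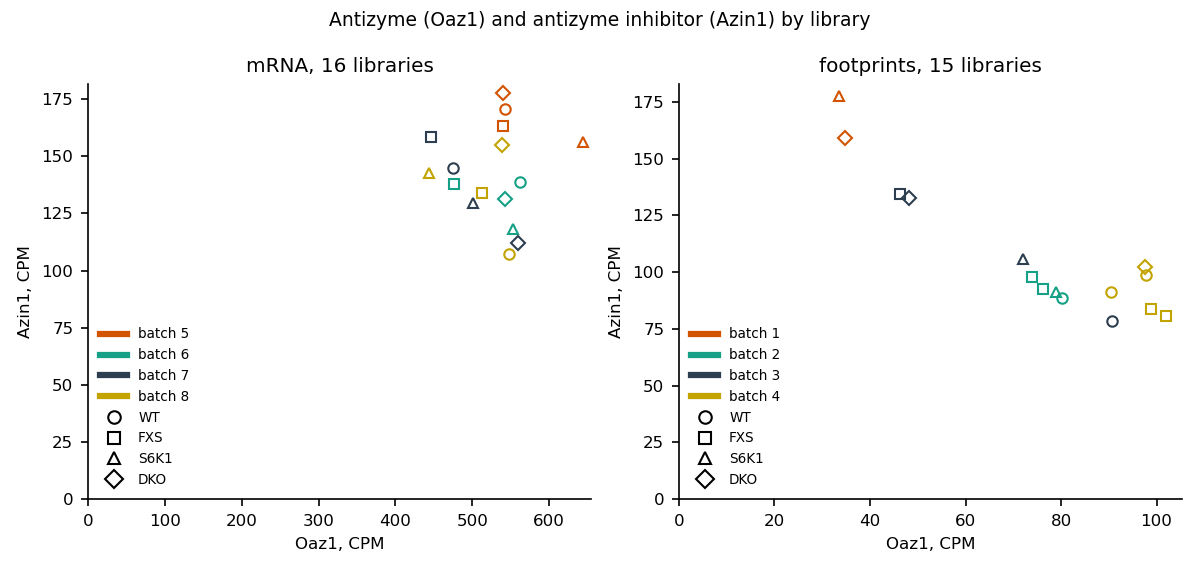
Oaz1 is plotted against Azin1 in CPM, with a point for each mRNA library on the left and each footprint library on the right, symbols for genotype and colours for batch. In footprints the batch 1 libraries lie at the upper left, at 33.5 and 34.7 CPM of Oaz1 and 178 and 159 CPM of Azin1, and the batch 4 libraries at the lower right, at 90.4 to 102 CPM of Oaz1.

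S6K1 footprint libraries of Oaz1 did not overlap those of WT, with the highest at 78.8 CPM against the lowest WT value of 80.2 CPM, and this held for 9.91% of all genes. DKO footprint libraries of Azin1 lay above those of WT, at 102 CPM or more against 99.0 CPM or less, which with Odc1 made 2 of the 7 against 16.3% of all genes. No member separated FXS from WT in footprints (1.74% of all genes did), and none separated any mutant from WT in mRNA (3.34% of genes for FXS, 1.6% for S6K1 and 6.15% for DKO). With the batch term, Oaz1 footprints differed from WT by -0.08 ± 0.182 in S6K1 (adjusted p = 0.949 by edgeR) and by -0.27 ± 0.181 in DKO (adjusted p = 0.454 by edgeR). Without it the values were -0.55 ± 0.336 (adjusted p = 0.567 by edgeR) and -0.58 ± 0.336 (adjusted p = 0.336 by edgeR). With the 2 libraries of batch 1 left out, an alternative chosen after seeing the data, they were -0.01 ± 0.199 and -0.31 ± 0.194 (adjusted p = 0.998 and 0.424 by edgeR).

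The Azin1 footprint difference of DKO from WT was 0.25 ± 0.155 with the batch term (adjusted p = 0.419 by edgeR), 0.56 ± 0.219 without it (adjusted p = 0.231 by edgeR) and 0.34 ± 0.159 with batch 1 left out (adjusted p = 0.311 by edgeR). The Azin1 footprint difference of S6K1 from WT was 0.13 ± 0.164 with the batch term (adjusted p = 0.897 by edgeR), 0.48 ± 0.219 without it (adjusted p = 0.566 by edgeR), 0.04 ± 0.168 with batch 1 left out (adjusted p = 0.998 by edgeR) and -0.09 ± 0.126 without WT replicate 2 (adjusted p = 0.879 by edgeR). Relative to mRNA it was 0.16 ± 0.209 (adjusted p = 0.899 by edgeR). Within batch 3 Azin1 was at 133 CPM in DKO against 78.3 in WT, and within batch 4 at 102 against 99.0 and 91.3. For Oaz1 the batch 3 values were 48.2 in DKO, 72.0 in S6K1 and 90.7 in WT, and the batch 4 values were 97.5 in DKO against 97.7 and 90.4 in WT. In batch 2 Oaz1 was at 78.8 CPM in S6K1 against 80.2 in WT. Batch 1 held no WT or FXS library, so batch and genotype cannot be told apart within it.

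After the mean of each batch was removed, Oaz1 and Azin1 had a Pearson r of -0.89 over 15 RPF libraries and -0.61 over 16 RNA libraries. Of all genes, 0.249% had a lower r with Azin1 than Oaz1 did in footprints and 3.15% in mRNA. Within batches, Oaz1 footprints spread mainly in batch 3, at 46.3 to 90.7 CPM over 4 libraries, each of another genotype. They spanned 33.5 to 34.7 CPM in batch 1, 73.9 to 80.2 in batch 2 and 90.4 to 102 in batch 4. The r of Oaz1 and Azin1 in footprints therefore rests largely on batch 3 and not evenly on the 15 libraries. Oaz1 and Oaz2 had an r of 0.69 in RPF and 0.86 in RNA. Of all genes, 90.8% had a lower r with Oaz1 than Oaz2 did in RPF and 98.9% in RNA. In RPF many other genes thus went with Oaz1 more closely than Oaz2 did. Azin1 and Smox had an r of -0.79 in RNA but 0.53 in RPF, so that pair kept no sign between the assays. Of all genes, 0.176% had a lower r with Azin1 than Smox did in RNA and 86.0% in RPF. In RNA Smox thus ran more strongly against Azin1 than Oaz1 did. These are descriptions over libraries that also differ in genotype, and all pairs share the same libraries and their depth.

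The genes most like each member, by the mean of the RNA and RPF correlations after batch means were removed, were the mitochondrial fission gene Fis1 (0.90) and the peroxiredoxin gene Prdx5 (0.89) for Oaz1 and again Fis1 (0.79) with Brf1 (0.79) for Oaz2. They were the endosomal GTPase gene Rab5a (0.89) and Dnaja2 (0.87) for Amd1, Epm2aip1 (0.83) and Fem1b (0.81) for Azin1, and Rwdd4a (0.77) and Mtx2 (0.74) for Odc1. They were 1200014J11Rik (0.80) and Rnf34 (0.78) for Sat1 and Timm44 (0.79) and Ilkap (0.76) for Smox. Each value rests on 16 RNA and 15 RPF libraries and was the highest of many, so it is given as a description.

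The wider polyamine pathway had few calls. Of 22 genes tested in mRNA, 2 were called in DKO against WT, beside 5.23% of all genes. Atp13a2, a lysosomal polyamine exporter, rose (0.28 ± 0.0702, adjusted p = 0.0249 by edgeR). Mat2a, which makes S-adenosylmethionine, fell (-0.25 ± 0.0674, adjusted p = 0.0353 by edgeR). Libraries of both overlapped. Atp13a2 mRNA was at 179 to 306 CPM in WT and 201 to 356 in DKO, and Mat2a mRNA at 117 to 146 and 96.0 to 129. In footprints 0 of 21 were called in any comparison by edgeR, with 5 at an unadjusted p under 0.05 for DKO against WT, where 17.1% of all genes passed that level. Relative to mRNA, Atp13a2 (-0.69 ± 0.164, adjusted p = 0.0254 by edgeR) and Azin2, a second antizyme inhibitor (-0.49 ± 0.137, adjusted p = 0.0401 by edgeR), fell in DKO against WT, 2 of 21 beside 4.85% of all genes. No other comparison called a pathway gene. The upstream-frame list had 0 calls in each comparison by edgeR, and its 7 genes had a median difference of 0.07 relative to mRNA in DKO against WT, where the 7 polyamine genes had 0.21 and all genes -0.02. The polyamine genes ran from -0.31 to 0.59 with none called. The median size of this difference for single genes, sign aside, was 0.22 over all genes. A signed median over 7 genes is another measure, so 0.22 does not show whether 0.21 is ordinary. The shift of the 7 genes as a group was not tested.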

How the data were processed

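Raw counts per gene symbol were deposited by the authors in 1 table per assay, named as counts over coding sequences, with 20436 symbols and 31 libraries. The submitters' processing notes name cutadapt 2.0, Bowtie2, TopHat2, RSEM and the mm10 build, with no role or order. Tables of log2 differences, test scores, p-values and a mean signal of normalized counts, deposited by the authors and of unstated scale, were used only where they are named. The members, gene lists and tests were chosen with earlier results of these data known. Genes named are the members, Fmr1 and Rps6kb1, listed pathway genes that were called or had the 2 highest or lowest WT ratios, and the 2 genes most like each member; others were chosen after their values were seen.

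Counts were tested in R 4.3.3 with edgeR 4.0.16 (filterByExpr with a minimum count of 10, TMM factors, robust quasi-likelihood) with genotype and the labels' batch. Footprints relative to mRNA are the RPF difference minus the RNA difference in a joint model of both assays, whose batch terms sit inside each assay. The WT ratio was fitted without batch, since no batch spans assays. The threshold was an adjusted p of 0.05. Correlations used log2 of CPM plus 0.5. DESeq2 1.42.0 and limma 3.58.1 were alternatives. The scripts were tested on simulated data. Library totals were 12.1 to 17.3 M (RNA) and 16.6 to 34.9 M (RPF). The labels do not tie libraries to animals and replicate numbers were given in accession order, so p-values measure the spread between these samples, which may be partly technical.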

Additional observations from a re-analysis of the deposited data

Results flagged for a closer look

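Odc1 mRNA in WT replicate 4 was 84.0 CPM, while the other 3 WT libraries were at 109 to 110 CPM, so this library lay far from the rest of its group of 4. Amd1 footprints in FXS replicate 3 were 215 CPM, while the other FXS libraries were at 116 to 134 CPM. These were the 2 values that stood apart among 42 groups of libraries examined, and chance alone flags about 1 in 20 groups. The same FXS library held 46.3 CPM of Oaz1 footprints and 134 CPM of Azin1 footprints.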

How the results depend on the processing

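Over 126 genotype differences of the 7 genes, 2331 alternative values were computed (DESeq2, limma voom, RLE factors, no low-count filter, no batch term, only the genotypes compared, each library left out, and batch 1 left out). Of these 1 was called: with only the 2 genotypes, 1 member was called in mRNA of DKO against WT, Sat1 at an adjusted p of 0.0399 by edgeR. Of all genes, 628 of 13906 were called in that comparison under that setting. A further 236 values had another sign than the main value, none of them called. In WT, 84 of 98 alternative ratios were called. Most genes were called under the same settings, from 11130 of 16240 with no low-count filter to 10876 of 13654 with all 31 libraries. The count of 84 by itself therefore says little about the members. Amd1 was called without RNA library WT replicate 4 (log2 ratio -0.31, adjusted p = 0.0263 by edgeR), over all alternatives its adjusted p ran from 0.0263 to 0.507, and with the all-gene median as reference its log2 ratio was 0.15.

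The batch of the labels served as the replicate block. Without the replicate block 0 of 7 members were called in each genotype comparison by edgeR, and no call changed. Few genes of any kind were called without it. For DKO against WT these were 2 of 14215 in mRNA, 6 of 13953 in footprints and 2 of 13654 relative to mRNA. With the block they were 743, 51 and 662, so 0 of 7 without it says little about the members. The summed Amd1 and Amd2 counts were not run, since the tables list no Amd2. Sat1 footprints rest on few counts, 365 to 623 per genotype, which limits its precision. Upstream frames, frameshift sites and reading frame of footprints cannot be seen in counts per gene.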
